A study of Mus musculus with 2 samples.

Results

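Retinoid metabolism and transport was examined in small hepatocytes (SHs) and mature hepatocytes (MHs) of adult mice through 8 genes, Rbp4, Ttr, Lrat, Dhrs3, Rdh10, Rdh11, Rdh16 and Cyp26a1. The genes were listed by name for their known roles in carrying, storing, converting and degrading vitamin A, with earlier results of these data known. All 8 were found among the 43280 gene symbols counted in each library. Poly(A) RNA of 1 sample of MHs and 1 sample of SHs was sequenced on an Ion Proton system. Both samples came from livers of the same healthy C57BL6 mice, more than 1 animal, which were dissociated by collagenase perfusion and are labelled as 20 weeks old, whereas the methods describe younger animals. Dead cells were removed with Percoll from both. MHs were the cells that sedimented first, and no sort is described for them. SHs, regarded as progenitors of hepatocytes, came from the remaining suspension and were sorted by FACS for ICAM-1 and against CD31, CD45 and EpCAM. The comparison therefore includes the sort as well as the cell type, and these cannot be told apart.

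The liver takes up most of the vitamin A of the diet and releases it to other organs. Hepatocytes receive retinyl esters from chylomicron remnants, hydrolyze them to retinol and secrete retinol bound to RBP4, which circulates together with transthyretin, the product of Ttr. Surplus retinol passes to hepatic stellate cells, where LRAT links it to fatty acids for storage in lipid droplets. Retinol and retinal are interconverted by dehydrogenases of the RDH, DHRS and ADH families, retinal is oxidized irreversibly to retinoic acid, and CYP26 enzymes inactivate retinoic acid.

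Counted reads totalled 16979136 for MHs and 42356444 for SHs. Levels are given as reads per 1000000 counted reads of the library (RPM). A floor of 3 reads, set for counts of 0, corresponds to 0.177 RPM in MHs against 0.0708 in SHs. Ratios are of SHs over MHs on the log2 scale, with 0.5 reads added to each count, and the 95% Clopper-Pearson interval follows in parentheses. There was no replicate of either sample, so that the intervals cover counting error only and no test between SHs and MHs was possible. The 10 hepatocyte markers examined had between 633 and 55706 RPM in MHs and between 649 and 60855 in SHs. Markers of other liver cells differed. The summed level of 10 endothelial markers was 95.1 RPM in MHs against 4.60 in SHs, and that of 10 macrophage markers was 22.1 and 0.685 RPM. The sum of 8 cholangiocyte markers was 21.4 RPM in MHs against 24.6 in SHs.

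Of the 8 retinoid genes, 7 had an interval wholly under 0, that is, a lower level in SHs, and 0 had an interval wholly over 0. Over the 15521 genes with at least 10 reads in both libraries together, which included all 8, 15.5% lay under 0 and 16.8% over 0. The share depends on depth. Among the 9608 genes with at least 200 reads, it was 16.9% and 23.2%. The median log2 ratio was -0.20 over the retinoid genes and 0.02 over all tested genes. The sizes were unequal. Only Lrat was at least 2-fold lower in SHs, as were 4.46% of all tested genes, and Lrat, Rdh16 and Cyp26a1 were at least 1.5-fold lower, as were 6.20%. None of the 8 was at least 1.5-fold higher, as were 3.50% of all tested genes. The ratios of Rdh16 and Cyp26a1 had overlapping intervals, as had each other pair of neighbors in the order of ratios from Rdh11 through Dhrs3, Ttr and Rbp4 to Rdh10. Lrat stood apart from Rdh16, and Cyp26a1 from Rdh11, without overlap of the intervals.

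**Figure D1:**
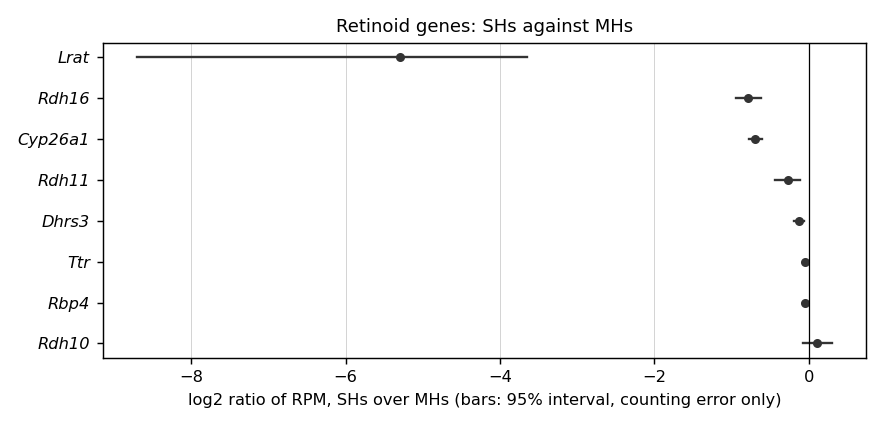
Log2 ratio of RPM in SHs over MHs for the 8 retinoid genes, as points, with 95% Clopper-Pearson intervals for counting error as bars. Lrat lies at -5.30, Rdh16 and Cyp26a1 lie at -0.78 and -0.69, and the other 5 genes lie between -0.27 and 0.10.

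Levels of different genes were compared after division by exon length in kilobases (RPKM), with lengths from the GENCODE M21 annotation. In MHs, the order was Ttr with 4149.9 RPKM, Rbp4 with 1023, Cyp26a1 with 57.1, Dhrs3 with 51.1, Rdh11 with 7.98, Rdh16 with 5.23, Rdh10 with 4.49 and Lrat with 0.429. In SHs, Dhrs3 with 46.7 RPKM stood above Cyp26a1 with 35.3, and Rdh10 with 4.83 stood above Rdh16 with 3.04. The plasma carriers were thus at the top in both libraries and Lrat at the bottom. With the length of the longest transcript in place of all exons, Dhrs3 stood above Cyp26a1 in MHs as well, and Rdh16 stood above Rdh11 in MHs and above Rdh10 in SHs, so the order of these neighbors rests on the choice of length.

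**Figure D2:**
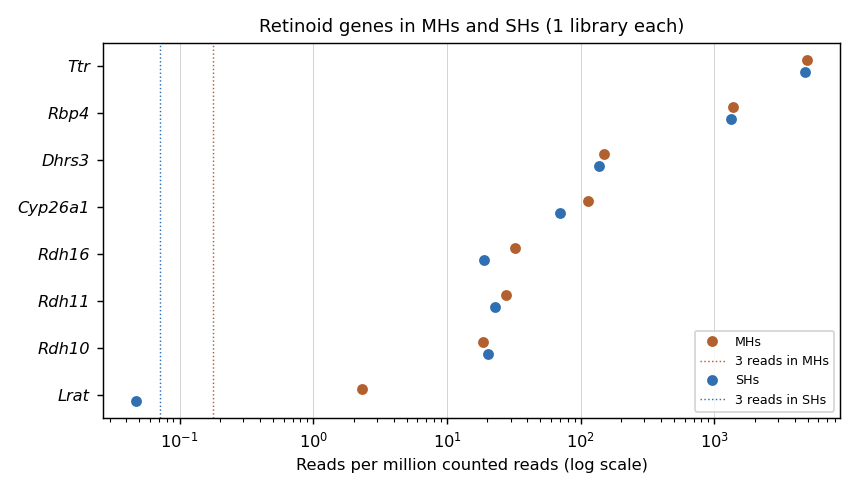
Level of the 8 retinoid genes in the library of MHs and the library of SHs, in RPM on a log axis, with dotted lines at the level of 3 reads in each library. Ttr and Rbp4 lie at 1328 RPM or more in both libraries, and Lrat lies at 2.30 RPM in MHs and at 0.0472 in SHs, to the left of the line for 3 reads.

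The plasma carriers had almost the same level in both samples. Ttr (chromosome 18, 20665280 to 20674321 of mm10, plus strand), which encodes transthyretin, had 83568 reads in MHs and, at greater depth, 201140 in SHs, or 4922 and 4749 RPM. Its log2 ratio was -0.05 (-0.06 to -0.04). Rbp4 (chromosome 19, 38116629 to 38125281, minus strand), which encodes the retinol-binding protein of plasma, had 23317 reads in MHs against 56257 in SHs, or 1373 and 1328 RPM. Its log2 ratio was also -0.05 (-0.07 to -0.03), and 41.4% of all tested genes had a lower ratio. When the totals were taken without the 10 most abundant genes, the interval of Rbp4 included 0. The proportion of the carriers to each other was the same to 3 digits, with 3.58 reads of Ttr per read of Rbp4 in MHs as in SHs. Together the carriers took 0.630% of all counted reads in MHs and 0.608% in SHs, and 94.8% and 95.8% of the reads of the 8 retinoid genes. By number of reads, Ttr was gene number 21 of the library in MHs against 23 in SHs, and Rbp4 was number 109 and 110.

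The storage gene Lrat differed most. Lrat (chromosome 3, 82892579 to 82903973, minus strand) encodes lecithin retinol acyltransferase, which makes retinyl esters and in the liver marks stellate cells. It had 39 reads in MHs against 2 in SHs, or 2.30 and 0.0472 RPM, for a log2 ratio of -5.30 (-8.70 to -3.65). The level in SHs was under that of 3 reads, and the width of the interval follows from the 2 reads. Only 0.432% of all tested genes had a lower ratio. The annotated gene on the opposite strand, Rbm46os, had 1 read in each library.

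Markers of stellate cells were lower in SHs together with Lrat. The sum of 15 stellate cell markers, Lrat not included, was 27.8 RPM in MHs against 2.81 in SHs, for a log2 ratio of -3.30 (-3.61 to -3.01). By RPM, 14 of the 15 were lower in SHs, beside 10879 of all 43280 symbols. Col1a1, with 1 read in MHs and 6 in SHs, was higher. Of the 15, 10 had at least 10 reads, and all 10 had an interval under 0, beside 15.5% of all tested genes. The other 5 had fewer than 10 reads in all. The largest contribution in MHs came from Reln, which encodes the matrix protein reelin, with 130 reads in MHs against 64 in SHs. Dcn, which encodes the matrix proteoglycan decorin, had 117 and 2 reads, and Ecm1 had 102 and 17. Colec11 had 26 reads in MHs against 0 in SHs. With 3 reads set for SHs, its level there was 21.6-fold lower. The interval for counting error, taken on the counts themselves, allowed a difference as small as 16.4-fold. Lum and Gfap also had 0 reads in SHs. Des, which encodes desmin, had 10 and 2 reads. In bulk RNA, fewer cells of a type and less RNA per cell cannot be told apart, and the part of stellate cells in the ratio of Lrat was not tested.

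**Figure D3:**
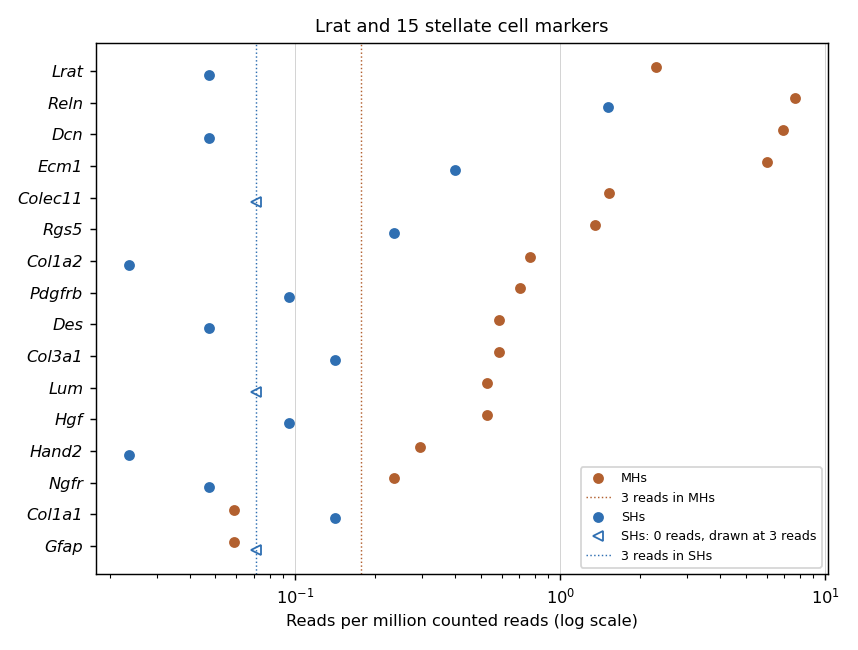
Level of Lrat and of 15 stellate cell markers in MHs and SHs, in RPM on a log axis, with markers at 0 reads in SHs drawn as open triangles at the level of 3 reads. The sum of the 15 markers is 27.8 RPM in MHs against 2.81 in SHs, and Col1a1, with 1 read in MHs against 6 in SHs, is the only one with a higher level in SHs.

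Retinoic acid is degraded by CYP26A1, the main retinoic acid hydroxylase of liver, whose gene is a well-known target of retinoic acid itself. Retinoic acid receptors (RARs) bind DNA with retinoid X receptors (RXRs) at repeats of a core motif, AGGTCA, with AGTTCA, then GGGTCA, and also GGTTCA counted as variants. A direct repeat of the core with 5 bases between the copies is known as DR5. Windows of 300 bases around the RefSeq start of each gene (GRCm38.p6, from 250 bases before the start to 50 after) were searched on both strands. They were matched for 6 of the 8 retinoid genes, not for Rdh10 and Ttr. Cyp26a1 was the only one of the 6 with a DR5, and Rarb, which encodes a retinoic acid receptor and is also a classical target, was the only one among 38 matched genes of the wider retinoid pathway. Over all 32817 windows of the genome, 32 held a DR5, or 0.0975%, whereas 43.7% held the core motif alone. Rdh16 held 1 core motif and no DR5. The windows of Cyp26a1 (chr19:37697558-37697857, plus strand), Rarb (chr14:16575427-16575726, minus strand) and Rdh16 (chr10:127800903-127801202, plus strand) are shown 5′ to 3′ to place the motif, with each core motif on either strand in capitals.
Cyp26a1: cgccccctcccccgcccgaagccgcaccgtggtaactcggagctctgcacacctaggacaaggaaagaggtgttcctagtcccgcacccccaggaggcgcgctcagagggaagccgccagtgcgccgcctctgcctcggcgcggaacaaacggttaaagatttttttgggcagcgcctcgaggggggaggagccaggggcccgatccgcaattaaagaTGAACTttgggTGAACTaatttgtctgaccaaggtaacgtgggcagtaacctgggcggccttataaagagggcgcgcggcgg
Rarb: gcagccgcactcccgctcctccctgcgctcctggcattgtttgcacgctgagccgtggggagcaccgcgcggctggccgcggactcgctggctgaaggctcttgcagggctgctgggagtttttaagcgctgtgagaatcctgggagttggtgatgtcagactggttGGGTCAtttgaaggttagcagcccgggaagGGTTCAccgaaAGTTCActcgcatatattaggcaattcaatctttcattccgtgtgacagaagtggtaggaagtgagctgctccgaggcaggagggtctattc
Rdh16: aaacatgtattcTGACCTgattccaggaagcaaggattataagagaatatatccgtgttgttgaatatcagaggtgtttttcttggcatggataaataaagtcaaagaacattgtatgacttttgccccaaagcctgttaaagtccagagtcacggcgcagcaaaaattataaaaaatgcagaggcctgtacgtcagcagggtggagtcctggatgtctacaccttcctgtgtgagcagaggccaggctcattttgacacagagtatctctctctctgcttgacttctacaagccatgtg
The DR5 of Cyp26a1, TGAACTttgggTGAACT as read on the strand of the gene, began 32 bases before the annotated start, and that of Rarb, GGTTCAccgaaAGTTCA, began 53 bases before it. A match of letters is a description of the sequence and does not show binding in these cells.

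The 2 genes with a DR5 differed in level, and only Cyp26a1 had a ratio with an interval that excluded 0. Cyp26a1 (chromosome 19, 37697798 to 37701536, plus strand) had 1924 reads in MHs against 2969 in SHs, or 113.3 and 70.1 RPM. Its log2 ratio was -0.69 (-0.78 to -0.61), a level 1.62-fold higher in MHs, and 8.76% of all tested genes had a lower ratio. Rarb had 64 reads in MHs against 204 in SHs, or 3.77 and 4.82 RPM, and its log2 ratio of 0.35 (-0.06 to 0.78) had an interval that included 0. Dhrs3, which encodes a retinal reductase and is likewise known to be induced by retinoic acid, was only slightly lower in SHs. Dhrs3 (chromosome 4, 144892827 to 144928209, plus strand) had 2538 and 5790 reads, or 149.5 and 136.7 RPM, for a log2 ratio of -0.13 (-0.20 to -0.06), and none of its 3 windows held the core motif.

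The other CYP26 genes had few or no reads. Cyp26b1, which encodes a second retinoic acid hydroxylase, had 49 reads in MHs against 4 in SHs, for a log2 ratio of -4.78 (-6.87 to -3.49). Its level in MHs was 2.89 RPM, close to the 2.30 RPM of Lrat. Cyp26c1 had 0 reads in both libraries. Cyp2c39, a cytochrome P450 that also hydroxylates retinoic acid, had 12 reads in MHs against 10 in SHs, for a log2 ratio of -1.57 (-2.95 to -0.25).

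Retinol is oxidized to retinal by retinol dehydrogenases, of which RDH10 is the enzyme that supplies retinal in the embryo, RDH11 acts mainly as a retinal reductase, and RDH16 belongs to a family of liver enzymes that also accept steroids. Rdh10 (chromosome 1, 16105774 to 16133734, plus strand) was the only one of the 8 genes with a ratio over 0. It had 317 reads in MHs against 851 in SHs, or 18.7 and 20.1 RPM, and its log2 ratio of 0.10 (-0.08 to 0.30) had an interval that included 0. Rdh11 (chromosome 12, 79174337 to 79192293, minus strand) had 468 and 966 reads, or 27.6 and 22.8 RPM, for a log2 ratio of -0.27 (-0.43 to -0.11). Rdh16 (chromosome 10, 127801152 to 127846565, plus strand) had 552 reads in MHs against 801 in SHs, or 32.5 and 18.9 RPM. Its log2 ratio was -0.78 (-0.94 to -0.62), and 7.82% of all tested genes had a lower ratio. Rdh16 and Rdh11, neighbors in level in MHs, thus differed in the size of their ratios without overlap of the intervals.

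Rdh16 lies in a cluster of close relatives, and their shared sequence limits how surely reads can be assigned. Over the aligned coding bases, Rdh16 was 96.3% identical to Rdh9, 94.1% to Rdh19, 93.1% to Rdh1, 91.8% to Rdh16f2, 86.9% to Rdh7 and 72.3% to Hsd17b6, which encodes a hydroxysteroid dehydrogenase with retinol dehydrogenase activity. Of the 3108 windows of 100 bases in the coding transcript of Rdh16, 13.3% matched a transcript of Rdh9 with at most 2 mismatches, 6.11% one of Rdh1 and 0% one of Rdh16f2. For Rdh19, Hsd17b6 and Rdh7, the shares were 5.98%, 2.8% and 1.22%. The longest run shared with Hsd17b6 and Rdh1 was 104 coding bases in exon 1 of Rdh16 (chr10:127801367-127801470, plus strand, coding bases 170 to 273). It was identical in 4 of the 6 relatives, and it is shown with the bases that differ from Rdh16 in capitals, because a read within it cannot be assigned to 1 of the identical genes.
Rdh16: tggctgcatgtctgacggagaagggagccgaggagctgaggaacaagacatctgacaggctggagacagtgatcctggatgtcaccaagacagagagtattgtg
Rdh9: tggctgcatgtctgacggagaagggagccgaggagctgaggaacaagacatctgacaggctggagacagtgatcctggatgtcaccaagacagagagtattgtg
Rdh7: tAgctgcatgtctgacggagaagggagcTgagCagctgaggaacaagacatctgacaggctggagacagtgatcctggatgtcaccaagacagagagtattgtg
Rdh16f2: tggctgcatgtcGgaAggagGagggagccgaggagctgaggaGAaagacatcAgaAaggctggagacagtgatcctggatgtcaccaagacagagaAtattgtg
The sequences of Rdh1, Rdh19 and Hsd17b6 in this run are those of Rdh16 and Rdh9. Rdh7 differed at 3 bases and Rdh16f2 at 8. The annotated pseudogene Rdh18-ps, which overlaps Rdh16 on the same strand, had 89 reads in MHs against 219 in SHs, close to the proportion of the library totals.

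Reads were also summed over the family, since a sum does not depend on how reads were divided among the genes in it. Rdh16 and its 5 Rdh relatives together had 15190 reads in MHs against 34370 in SHs, or 894.6 and 811 RPM, for a log2 ratio of -0.14 (-0.17 to -0.11). Rdh7 alone held 13865 and 31323 of these reads. Without Rdh7, the log2 ratio of the sum was -0.12 (-0.21 to -0.02). With Hsd17b6, which shares the run of 104 bases, the sum was 17217 reads in MHs against 42948 in SHs, or 1014.0 RPM in both, and on the log2 scale the interval from -0.03 to 0.03 included 0. Both of these sums were added after the values were seen, and the lower sum in SHs thus held only without Hsd17b6. The interval of Rdh16 did not overlap that of any of the 3 sums. Rdh16f2, listed in the files under the older symbol BC089597, was higher in SHs with 39.6 RPM in MHs against 47.2 in SHs, for a log2 ratio of 0.25 (0.13 to 0.38). Rdh9, Rdh1 and Rdh19, with between 29 and 37 reads in MHs, had intervals that included 0. Hsd17b6, at the far end of the cluster, was higher in SHs, with 119.4 and 202.5 RPM and a log2 ratio of 0.76 (0.69 to 0.83). The ratios of Rdh16 and Hsd17b6 were of nearly the same size and opposite sign.

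**Figure D4:**
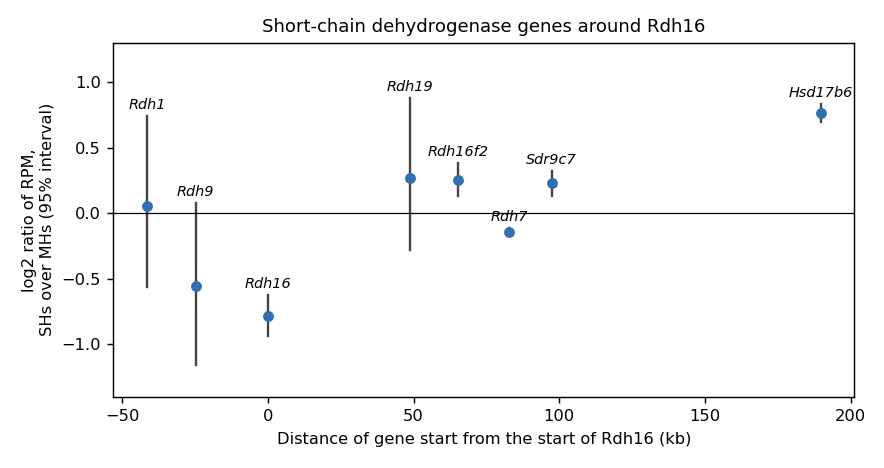
Log2 ratio of RPM in SHs over MHs, with 95% intervals for counting error, against the distance of each gene's start from the start of Rdh16 in kilobases, for 8 short-chain dehydrogenase genes of chromosome 10. Rdh16 lies lowest at -0.78 and Hsd17b6 highest at 0.76, with Rdh7 at -0.14 and Rdh16f2 at 0.25 between them.

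Hepatocytes differ along the axis from portal to central vein, and markers of position differed between the samples. All 10 pericentral markers examined had an interval under 0, as had 15.5% of all tested genes. Their median log2 ratio was -1.93, with a range of -4.23 to -1.08. All 10 periportal markers had an interval over 0, as had 16.8% of all tested genes, with a median of 0.47 and a range of 0.06 to 1.29. Both lists were chosen with earlier results of these data known, and the paper had reported several of the pericentral markers as lower in SHs. These counts are therefore not independent of the data. The ratios of Cyp26a1 and Rdh16 were smaller in size than that of each of the 10 pericentral markers. The part of position in the ratios of Cyp26a1, Rdh16 and Rdh11 was not tested.

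The wider pathway was described with 47 other genes of retinoid uptake, esterification, conversion, oxidation, degradation and signaling. Of these, 37 had at least 10 reads, 10 of the 37 had an interval under 0 and 9 had one over 0, beside 15.5% and 16.8% of all tested genes. Their median log2 ratio was 0.01, and 4 of them, Fabp5, Lpl, Cyp26b1 and Cyp2c39, were at least 2-fold lower in SHs, as were 4.46% of all tested genes. None was at least 2-fold higher, a size reached by 2.00% of all tested genes. The 10 genes under the minimum included Stra6, Rbp2, Rbp7, Crabp1, Crabp2, Rdh12, Sdr16c5, Aldh1a2 and Aldh1a3 besides Cyp26c1, and each had 5 reads or fewer in each library.

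Among genes of uptake and binding, the membrane receptors for RBP4 differed in level. Stra6, the receptor of many other organs, had 0 reads in MHs against 1 in SHs. Stra6l, which encodes the RBP4 receptor 2 of liver, had 4494 reads in MHs against 10660 in SHs, or 264.7 and 251.7 RPM, for a log2 ratio of -0.07 (-0.12 to -0.02). Its interval, like that of Rbp4, included 0 when the 10 most abundant genes were left out of the totals. Fabp5, a lipid-binding protein that can carry retinoic acid, had 82 and 98 reads, for a log2 ratio of -1.06 (-1.50 to -0.62).

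Genes of ester synthesis and hydrolysis were near equal in the 2 libraries, apart from Lpl. Dgat1, which can esterify retinol without LRAT, had 16.1 RPM in MHs against 17.8 in SHs, for a log2 ratio of 0.15 (-0.05 to 0.35). Lipe, a lipase gene, had a log2 ratio of -0.05 (-0.29 to 0.19). Pnpla2, which encodes a triglyceride lipase, had one of 0.13 (-0.01 to 0.28), and its interval lay over 0 under each of the 3 other scalings tried. Lipa, the lysosomal acid lipase gene, had 177.8 RPM in MHs against 170.2 in SHs and an interval just under 0, which included 0 under each of these scalings. Lpl, which encodes the lipoprotein lipase of vessel walls, had 61 reads in MHs against 23 in SHs, for a log2 ratio of -2.71 (-3.49 to -2.01). The endothelial and macrophage markers, whose sums are given above, were lower in SHs as well, and their part in the ratios of Lpl, Fabp5 and Cyp26b1 was not tested.

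Among the enzymes of retinol and retinal, the ratios of Adh1, Rdh7 and Adh4 were small and that of Hsd17b6, given above, was larger. Adh1, an abundant alcohol dehydrogenase of liver that clears excess retinol, had 1154 RPM in MHs against 1143 in SHs, and its log2 ratio of -0.01 (-0.04 to 0.01) had an interval that included 0. Adh4 was higher in SHs with 113.1 and 126.2 RPM, for a log2 ratio of 0.16 (0.08 to 0.23). Over the 14 genes of this group with at least 10 reads, 1 had an interval under 0, which was Rdh7, and 3 had one over 0, which were Adh4, Rdh16f2 and Hsd17b6, beside 15.5% and 16.8% of all tested genes. The retinal reductase gene Dhrs4 had 84.0 RPM in MHs against 84.9 in SHs. Of the carotenoid-cleaving enzymes, Bco2 had a log2 ratio of -0.22 (-0.41 to -0.03) and Bco1, which makes retinal from beta-carotene and had 34 reads in MHs, one of 0.56 (0.01 to 1.16).

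The group listed for the oxidation of retinal to retinoic acid held 5 genes with at least 10 reads. Of these, 2 had an interval under 0 and 3 had one over 0. Membership rests on the list, and whether each product, that of Aldh1a7 included, acts on retinal was not tested. Of all tested genes, 15.5% lay under 0 and 16.8% over 0. Among genes with at least 200 reads, which all 5 had, the shares were 16.9% and 23.2%. Aldh1a1, which encodes a retinal dehydrogenase, was lower in SHs with 439.4 RPM in MHs against 331.7 in SHs, for a log2 ratio of -0.41 (-0.45 to -0.36). Aox1 was also lower, with a log2 ratio of -0.35 (-0.43 to -0.28). Aldh8a1, whose product acts on 9-cis-retinal, was higher with 264.0 and 288.6 RPM, as were Aldh1a7 at a log2 ratio of 0.09 (0.03 to 0.14) and Aox3 at 0.10 (0.08 to 0.13). Summed over the group, the level was 2399 RPM in MHs against 2403 in SHs, and the interval of the log2 ratio, -0.01 to 0.02, included 0. Aox3 alone held 1366 RPM in MHs and 1469 in SHs of this sum, so the sum mostly reflects Aox3. Aldh1a1 and Aldh1a7, and Aox1 and Aox3, are close paralogs, so that their single values are uncertain where reads were shared.

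Of the 6 receptor genes, Rxra and Rara had an interval over 0. The share over 0 was 16.8% of all tested genes and 23.2% of those with at least 200 reads. Rxra, which encodes the main RXR of hepatocytes, had 302.5 RPM in MHs against 344.4 in SHs, for a log2 ratio of 0.19 (0.14 to 0.23). Rara had 15.9 and 19.2 RPM, for a log2 ratio of 0.27 (0.07 to 0.48). Rarb, Rarg, Rxrb and Rxrg had intervals that included 0, and Rarg had only 14 reads in MHs.

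**Figure D5:**
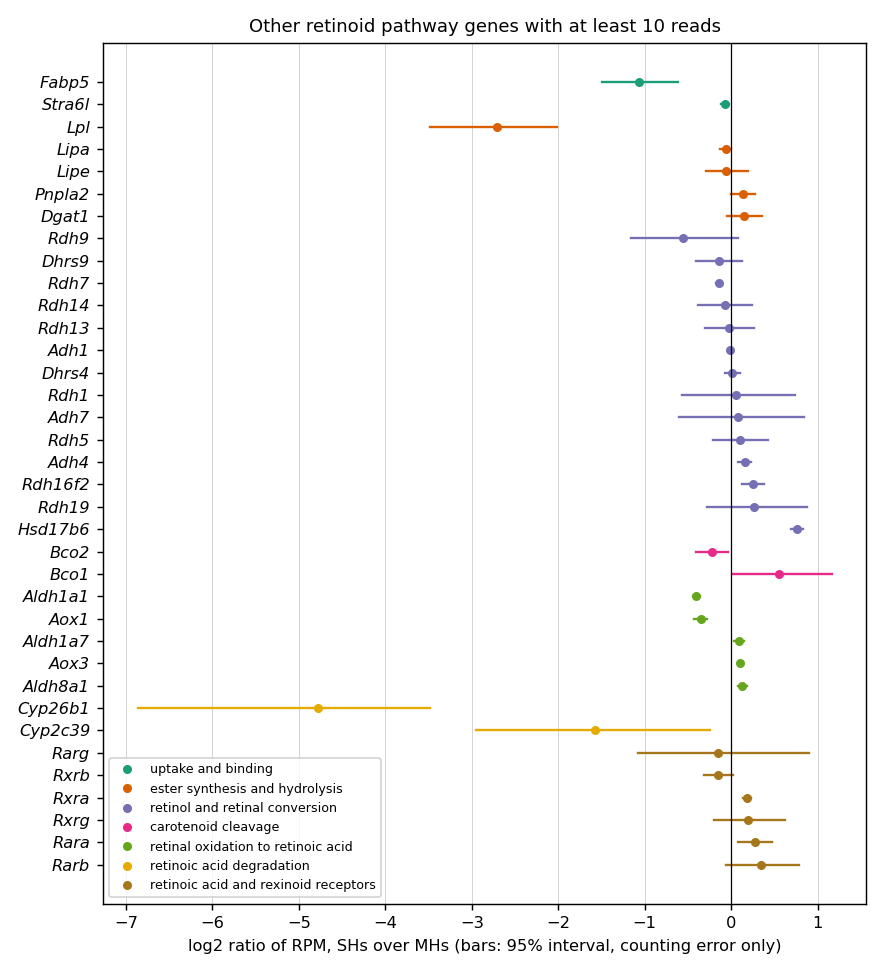
Log2 ratio of RPM in SHs over MHs for 36 of the 37 other retinoid pathway genes with at least 10 reads, colored by role, with 95% Clopper-Pearson intervals for counting error. Most points lie close to 0, while Fabp5, Lpl, Cyp26b1 and Cyp2c39 lie at or below -1.06 and Hsd17b6 lies highest at 0.76.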

How the data were processed

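For each sample, the authors deposited whole read counts per gene symbol, without normalization. Poly(A) libraries were made with the Ion Total RNA-Seq Kit v2. The methods describe trimming, alignment to mm10 in CLC Genomics Workbench, with reads allowed to match several places, and RPKM. The program and annotation behind the counts, and whether strand was used, are not given in the sources used here, so reads of paralogs and overlapping genes are uncertain.

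Counts were scaled to RPM by the total of counted reads. Ratios and intervals were computed in Python 3.11.15 with scipy 1.17.1, for all 43280 symbols. They were tried on simulated counts with counting error only, so spread between samples was not covered. Fold thresholds of 2 and 1.5 were applied to genes with 10 or more reads in all. With 1 library per group, no p-value was computed. The 8 genes, the pathway and marker lists and the role groups were chosen with earlier results of these data known. The named genes were the 8 genes, the pathway list (1 gene of which is not reported here), the relatives of Rdh16 and markers that touch a result. Gene positions, exon lengths and transcripts came from GENCODE M21 (mm10), and promoter windows from RefSeq (GRCm38.p6).

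Alternatives were scaling by TMM in edgeR 4.0.16, by size factors of DESeq2 1.42.0 or by a total that leaves out the 10 most abundant genes, 2 added reads, no minimum or a minimum of 200 reads, 1.5-fold, and the longest transcript as length. The sums without Rdh7 and with Hsd17b6 were added after the data were seen.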

Additional observations from a re-analysis of the deposited data

How the results depend on the processing

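No paired analysis was possible because MHs and SHs were each 1 library. TMM, DESeq2's size factors and a total that leaves out the 10 most abundant genes shifted all log2 ratios alike, by 0.01, 0.01 and 0.03, and 0 of the 8 retinoid genes changed the sign of its ratio under these or with 2 reads added. Under the last of these scalings, the log2 ratio of Rbp4 was -0.0167, with an interval that included 0, that of Ttr was -0.0201, and that of the summed reads of Rdh16 and its Rdh relatives was -0.11. Scaled by the total of all reads and with Hsd17b6 in the sum, it was -8.64e-05 and no longer under 0 by its interval. The interval of Lipa included 0 under all 3 scalings and that of Stra6l under the last, that of Pnpla2 lay over 0 under all 3, and Adh1 and Rdh13 changed sign under the last with intervals that included 0. Across scalings and added reads, Lrat ranged from -5.29 to -4.68, Rdh16 from -0.78 to -0.75 and Cyp26a1 from -0.69 to -0.66. With at least 200 reads, Lrat was left out, so that 0 of the 8 genes were at least 2-fold lower, and 6 of the pathway genes had an interval under 0. At 1.5-fold, 3 of the 8 genes were lower. With the longest transcript as length, 4 of the 8 genes kept their place in the order of levels in MHs. Depth limits Lrat, Cyp26b1 and the stellate markers, which had few reads in SHs.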

Other observations

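Genes around Rdh16 on chromosome 10 that are outside the retinoid lists were chosen after their values were seen. Sdr9c7, a short-chain dehydrogenase gene, lies within the cluster, 97.4 kb from the start of Rdh16. It had 1270 reads in MHs against 3708 in SHs, for a log2 ratio of 0.23 (0.13 to 0.32). Gpr182, a gene of endothelial cells on the other side of Rdh16, had 130 reads in MHs against 5 in SHs. Its log2 ratio was -5.89 (-7.67 to -4.76). Gls2, a periportal glutaminase gene 393 kb from the start of Rdh16, had a log2 ratio of 0.53 (0.49 to 0.56). Lrp1, whose product takes up chylomicron remnants with their retinyl esters, lies on the same side of Rdh16 as Gpr182. It was near equal, with 1051 RPM in MHs against 1058 in SHs and a log2 ratio of 0.01 (-0.01 to 0.04). The genes of this region thus had ratios in both directions.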
